A study of Mus musculus with 7 samples.

Results

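Paired receptors of myeloid cells come in families in which closely related proteins send opposite signals. The inhibitory ones carry tyrosine motifs in the cytoplasmic tail (ITIMs) that recruit phosphatases such as SHP-1, and the activating ones have short tails and signal through adaptors such as DAP12 or the Fc receptor gamma chain. Many bind lipids exposed on dying cells or proteins on healthy neighbours, and in the airspace they are known for setting the threshold at which macrophages and neutrophils take up cells and release cytokines. Described here are 10 such genes of the 16476 genes in the table, chosen by name. They are the inhibitory receptor genes Sirpa, Pirb, Lilrb4a, Pilra, Cd300a and Cd300lf and the activating receptor genes Cd300c2, Cd300lb, Cd300ld and Cd300e. All 10 passed the minimum mean of 10 normalized counts, so all were among the 12963 genes tested.

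RNA came from cells washed out of the lung airspaces of mice of the C57BL/6 background. The mice had received lipopolysaccharide, a component of bacterial cell walls, through the trachea 3 days earlier, and their neutrophils had been depleted with antibodies. The control group held 4 libraries of genotype LysM Cre, and the knockout group 3 libraries of genotype Netrin1loxp/loxp LysM Cre, in which Cre expressed from the lysozyme M locus is directed at floxed alleles of Ntn1, the gene of the secreted guidance protein netrin-1. By their labels all 7 libraries carried Cre and had been exposed to lipopolysaccharide, and no group labelled as unchallenged or Cre-free was compared. Lysozyme M is active in neutrophils, monocytes and macrophages, so other cells of the lavage keep Ntn1. The labels give no age, and they do not say whether a library is 1 mouse, so the p-values reflect only how far these libraries spread, and that spread may be technical.

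Each library held between 9903284 and 13353733 whole reads. Ntn1 itself was at 1.02, 3.91, 7.96 and 3.76 normalized counts in controls 1 to 4 and at 1.01, 0 and 0.903 in knockouts 1 to 3. The limit compatible with no detected read, 3 reads, corresponds to 2.65 to 3.76 normalized counts depending on the library. Control replicates 2 and 3 lay above that limit for their own libraries, control replicate 4 at it, and control replicate 1 and all knockouts below it. Lyz2, the lysozyme M gene, reached 76927 and 118781 normalized counts in control replicates 1 and 4, while the remaining 5 libraries spanned 721.3 to 1052. Since the Cre of this line sits in that locus, control replicates 1 and 4 differed from the other libraries at the locus that carries Cre, and whether they carried it as labelled was not tested. Knockout replicate 1 stood apart from the other knockouts, with a chi-square per gene of 34.0 and 35.5 against replicates 2 and 3, which differed from each other by 9.22. Controls were also uneven, from 8.63 between replicates 1 and 4 and 11.8 between replicates 2 and 3 to 31.3 between replicates 1 and 3. The receptor results are given with and without knockout replicate 1, and the members' calls also without either pair of controls. For only some of the other named genes highest in that library is a change without it given.

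Upstream sequence is shown for Cd300c2, the Cd300 gene that fell, and for Cd300lf, Cd300ld and Pirb, because these promoters share short purine-rich matches. RefSeq (GRCm38.p6) gave a promoter for 8 of the 10 members, all but Sirpa and Lilrb4a. The motif AGGAAGT, the core recognised by PU.1 and other ETS factors that are active in myeloid cells, was searched on both strands of the 300 bases around each gene start. It occurred in 6 of these 8 promoters (Pilra, Pirb, Cd300ld, Cd300c2, Cd300e and Cd300lf) and in 9.35% of all 32851 promoters of the same length. Cd300a and Cd300lb held no match. All 7 matches in the members lay on the strand of the gene, against 52.4% of the 3295 matches in all promoters. The longer GAGGAAGT, which contains the shorter motif, was found in 3 of the 8 (Pirb, Cd300ld and Cd300lf) and in 3.2% of all promoters. A C/EBP-like motif, TTGCNNAA, occurred in 2 of 8 (Pilra and Cd300a) against 10.8% of all, and the AP-1 motif TGACTCA in 0 of 8 against 5.2%. The motifs were settled on after the promoters had been looked at, so these are descriptions of letters in a window. In the lines that follow, capitals mark AGGAAGT, each run is written 5′ to 3′ on the strand of the gene, and each ends 10 bases past the more upstream of the RefSeq and GENCODE starts.
Cd300c2, chr11:115001871-115002070, minus strand: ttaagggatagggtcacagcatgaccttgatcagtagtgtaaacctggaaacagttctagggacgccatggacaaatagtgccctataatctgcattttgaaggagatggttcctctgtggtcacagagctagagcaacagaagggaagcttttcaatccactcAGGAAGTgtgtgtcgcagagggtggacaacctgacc
Cd300lf, chr11:115133983-115134182, minus strand: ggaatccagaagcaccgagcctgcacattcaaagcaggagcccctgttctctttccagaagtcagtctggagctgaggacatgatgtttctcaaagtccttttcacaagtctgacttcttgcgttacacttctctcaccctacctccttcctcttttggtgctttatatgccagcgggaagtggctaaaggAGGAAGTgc
Cd300ld, chr11:114989913-114990112, minus strand: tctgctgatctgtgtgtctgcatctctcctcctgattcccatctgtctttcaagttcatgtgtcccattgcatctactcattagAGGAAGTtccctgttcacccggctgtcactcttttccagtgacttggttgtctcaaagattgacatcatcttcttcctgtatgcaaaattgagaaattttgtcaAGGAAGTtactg
Pirb, chr7:3720382-3720581, minus strand: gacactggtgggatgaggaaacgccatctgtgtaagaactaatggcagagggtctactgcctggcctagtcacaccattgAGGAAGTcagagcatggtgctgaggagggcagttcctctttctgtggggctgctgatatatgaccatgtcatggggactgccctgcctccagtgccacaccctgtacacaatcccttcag
The match begins 26 bases before the RefSeq start of Cd300c2, 119 bases before that of Pirb, and 142 and 38 bases before that of Cd300ld. In Cd300lf it begins at the second transcribed base, and in Pilra it also lies past the RefSeq start. The GENCODE starts of Cd300ld and Cd300e lie upstream of their RefSeq starts. By those starts the second match of Cd300ld runs into the transcript and the match of Cd300e lies within it. Not all matches counted in the 6 promoters are thus upstream of the gene start.

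Of the 10 receptor genes, 2 fell in knockouts and none rose. Cd300c2, an activating receptor, fell by 0.62 on the log2 scale and Sirpa, the inhibitory receptor for CD47, fell by 0.52. Calls were made at an adjusted p under 0.05 with limma, which called 11.3% of all genes tested lower and 10.4% higher, so 2 of 10 is close to that background. edgeR and DESeq2, applied to whole reads recovered from the table, each called 2 lower and 0 higher, where they called 11.5% and 12.4% of all genes lower. At an unadjusted p under 0.05 limma and edgeR each gave 3 members lower and DESeq2 5, with 0 higher. The share of all genes at that unadjusted threshold is not given, here or for the lists below. These counts therefore cannot be set beside the adjusted shares. The authors' deposited table likewise had an adjusted p under 0.05 for Cd300c2 (0.00191) and Sirpa (0.0109) among the members, with 9.92% of its genes called lower. The median log2 fold change of the members was -0.16, beside 0.01 over all genes tested. It was negative for 7 of 10 members and for 6233 of the 12963 genes tested.

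**Figure D1:**
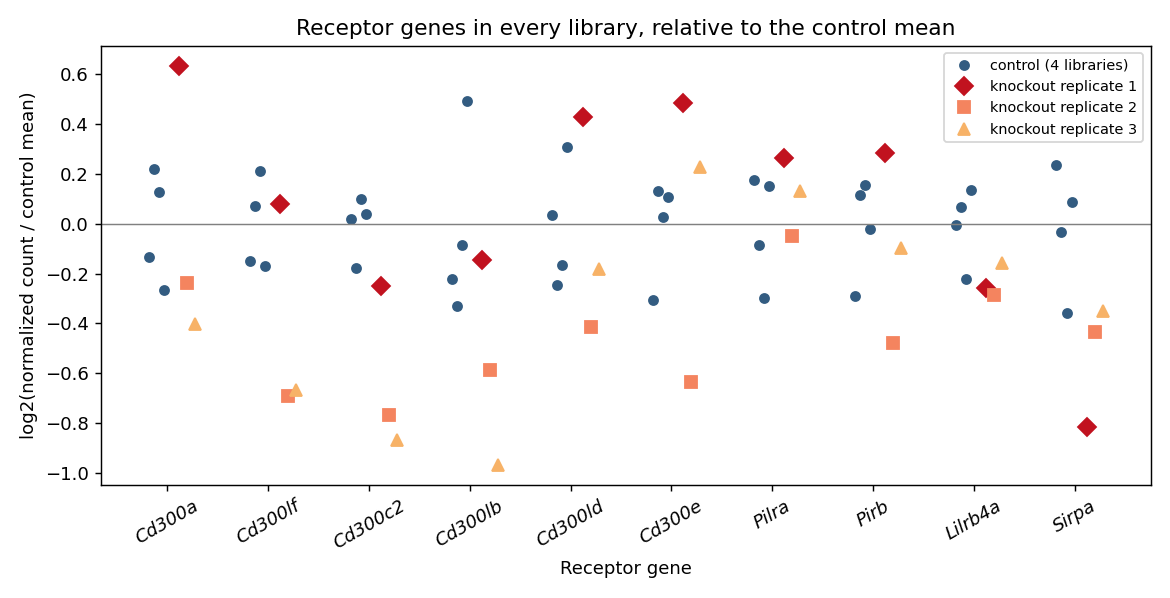
The log2 ratio of each library's normalized count to the control mean is plotted for each receptor gene, with controls as circles and the knockouts as a diamond (replicate 1), square (replicate 2) and triangle (replicate 3). Knockout replicate 1 is the highest knockout for 8 of the 10 genes and the lowest for Sirpa, and the groups are fully separated only for Cd300c2.

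Sirpa encodes SIRP alpha, which binds CD47 on other cells and restrains their uptake. It lies on chromosome 2 (GRCm38, 129592835 to 129632228, plus strand). Controls 1 to 4 held 13714, 11382, 9079 and 12353 normalized counts of Sirpa, and knockouts 1 to 3 held 6608, 8602 and 9121. Control replicate 3 fell just below knockout replicate 3, so the groups overlapped, and the other 3 controls lay above all knockouts. The means were 11632 ± 1952 (SD, n = 4) and 8111 ± 1327 (SD, n = 3), which is -0.52 on the log2 scale with an SE of 0.16 (adjusted p = 0.0476). This call was lost when any one library other than control replicate 3 was left out, with an adjusted p of 0.096 without control replicate 1, 0.099 without control replicate 2, 0.112 without control replicate 4, 0.121 without knockout replicate 1, 0.0872 without knockout replicate 2 and 0.0515 without knockout replicate 3. Scaling by library size gave 0.0512, which left 1 member called lower where 9.51% of all genes were. Without both control replicates 1 and 4, the libraries with high Lyz2, Sirpa had a log2 fold change of -0.34 (adjusted p = 0.246). Without both control replicates 2 and 3 it was at -0.70 (adjusted p = 0.0405).

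Pirb, Lilrb4a and Pilra, the other inhibitory receptor genes outside the CD300 family, did not pass the test. PIR-B binds MHC class I molecules, and its gene lies on chromosome 7 (3711409 to 3720391, minus strand). Pirb stood at 5894, 7818, 8031 and 7107 normalized counts in controls and at 8773, 5179 and 6748 in knockouts. Knockout replicate 1 was the highest and replicate 2 the lowest of the 7 libraries, and the log2 fold change was -0.09 (SE 0.18, adjusted p = 0.753). Lilrb4a, whose protein gp49B binds integrin alpha v beta 3, lies on chromosome 10 (51490956 to 51496611, plus strand). Its controls held 6345, 6673, 5449.7 and 6985 normalized counts and its knockouts 5316, 5211 and 5709. Here the knockouts were close together and only control replicate 3 came down among them, and the log2 difference was -0.23 (SE 0.09, adjusted p = 0.118). Without that control the adjusted p was 0.0333, which brought the members called lower to 3 where 9.4% of all genes were. Pilra, for a receptor of sialylated glycoproteins, lies on chromosome 5 (137821952 to 137836281, minus strand). Control values of Pilra were 2695, 2248, 1941 and 2649.6 normalized counts and knockout values 2860.5, 2304 and 2609.8, which overlap (log2 fold change 0.13, SE 0.13, adjusted p = 0.501).

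Reads of some of these genes can be shared or lost in counting, since their families hold near copies and the strand setting of the counting is unknown here. Lilrb4a shares 1846 exon bases with Gm49339 on its own strand and 131 with the antisense gene Gm40645. Pilra shares 468 exon bases with Zcwpw1 on the opposite strand, which averaged 91.7 normalized counts.

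The 6 CD300 members form a cluster of 244 kb on chromosome 11, between 114890041 and 115133992. The inhibitory members Cd300a and Cd300lf sit at its ends (114890041 to 114904654, plus strand, and 115116214 to 115133992, minus strand). Cd300a encodes a receptor of phosphatidylserine and phosphatidylethanolamine, lipids exposed by dying cells. Its controls held 643, 821, 769.9 and 586 normalized counts and its knockouts 1094, 597 and 534. Knockout replicate 1 exceeded every control while replicate 3 lay below every control, and the fold change was 0.01 on the log2 scale (SE 0.23, adjusted p = 0.978). Cd300lf encodes a receptor of ceramide and other lipids that limits the activation of mast cells and neutrophils. It was at 6103, 7127, 7852 and 6024 normalized counts in controls and at 7164, 4189 and 4260.3 in knockouts. Replicates 2 and 3 of the knockout lay below every control and replicate 1 within the control range, and the log2 difference was -0.42 (SE 0.19, adjusted p = 0.146).

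Cd300c2 was the one activating receptor gene that passed the test. It lies in the middle of the cluster (114996721 to 115001880, minus strand). Controls 1 to 4 had 1171, 1022, 1238 and 1187 normalized counts of Cd300c2, against 970.4, 678 and 632 in knockouts 1 to 3. The groups did not overlap, as for 16.3% of all genes tested in this direction, and knockout replicate 1 was the nearest to the controls. Means of 1155 ± 93.1 (SD, n = 4) and 760.2 ± 183.5 (SD, n = 3) differed by -0.62 on the log2 scale with an SE of 0.14 (adjusted p = 0.0166). Leaving out knockout replicate 2 raised the adjusted p to 0.0644, and no other single library ended the call, although without knockout replicate 3 it was 0.04997. The number of members called lower was thus 1 without control replicate 1, 2 or 4 or knockout replicate 3, where 9.5%, 7.06%, 6.98% and 10% of all genes were called lower, and 0 without knockout replicate 2, where 6.32% were. It was 0 without both control replicates 1 and 4, the libraries with high Lyz2, beside 4.37% of all genes. Without both control replicates 2 and 3 it was 1, beside 4.8% of all genes. That call was Sirpa, and Cd300c2 did not pass there (adjusted p = 0.0718). With the title or the description number as a block 0 members were called, beside 2.95% and 4.67% of all genes.

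The remaining activating genes, Cd300lb, Cd300ld and Cd300e, were less abundant and did not pass. Cd300lb, whose protein signals through DAP12, lies at 114922781 to 114934386 on the minus strand. It had 163.5, 151.7, 179.7 and 268.3 normalized counts in controls and 172.4, 126.9 and 97.6 in knockouts. Again knockouts 2 and 3 were below every control and replicate 1 among them (log2 fold change -0.53, SE 0.24, adjusted p = 0.143). Cd300ld, for a receptor that pairs with the Fc receptor gamma chain, lies at 114982274 to 114989922 on the minus strand. Values of 349.4, 287.7, 303.5 and 422.6 normalized counts in controls stood against 458.3, 255.8 and 300.8 in knockouts, with replicate 1 the highest library of all (log2 fold change -0.04, SE 0.20, adjusted p = 0.91). Cd300e, for a DAP12-coupled receptor of monocytes, lies at 115051917 to 115062177 on the minus strand. Its controls held 77.2, 104.7, 97.3 and 102.8 normalized counts and its knockouts 133.8, 61.5 and 112. The lowest and the highest library were both knockouts (log2 fold change 0.04, SE 0.25, adjusted p = 0.93).

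Per kb of exon, the members differed far more from each other than between the groups. In controls Sirpa was highest at 2369 ± 397.5 normalized counts per kb (SD, n = 4), followed by Pirb at 1613 ± 215.6, Cd300lf at 1316 ± 170.0, Lilrb4a at 1217 ± 126.8, Cd300c2 at 905.5 ± 73.1 and Pilra at 771.3 ± 115.6. A gap separated these from Cd300a at 148.8 ± 23.1, Cd300ld at 128.8 ± 22.9, Cd300lb at 65.4 ± 18.2 and Cd300e at 45.7 ± 6.04 normalized counts per kb. Control ranges of neighbours in this order overlapped for Pirb and Cd300lf, for Cd300lf and Lilrb4a, for Cd300c2 and Pilra and for Cd300a and Cd300ld, so these pairs are not ordered beyond their spread. Those of Sirpa and Pirb, Lilrb4a and Cd300c2, Pilra and Cd300a, Cd300ld and Cd300lb, and, narrowly, Cd300lb and Cd300e did not overlap.

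**Figure D2:**
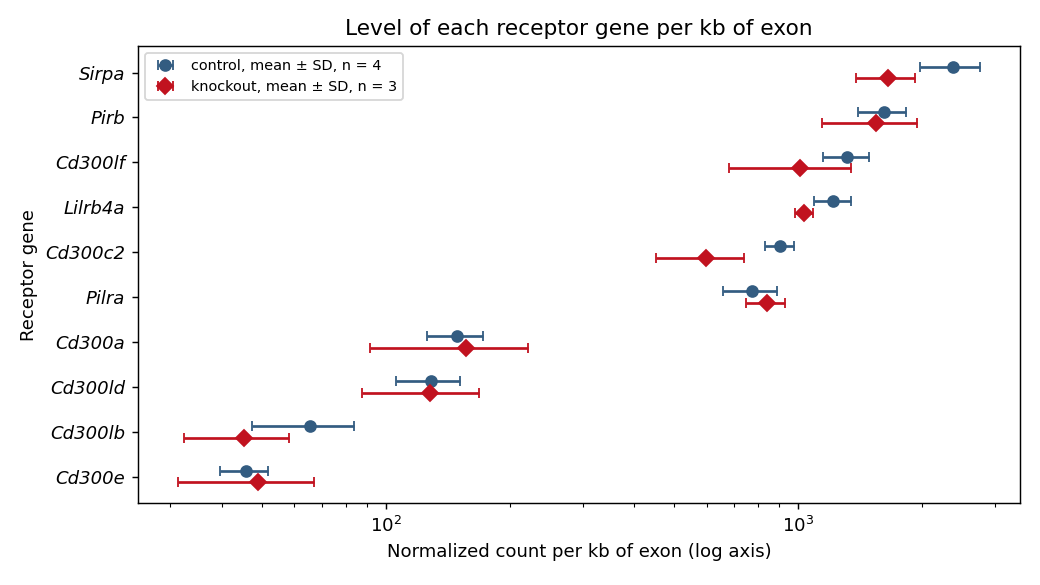
Normalized counts per kb of exon on a log axis for each receptor gene, as mean ± SD of the 4 controls (circles) and the 3 knockouts (diamonds). Sirpa is the highest and Cd300e the lowest in controls, 2369 against 45.7 per kb, and control and knockout error bars overlap for 7 of the 10 genes.

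Within the knockout group the members were split by library. Knockout replicate 1 was the highest of the 3 knockouts for 8 of the 10 members, all but Sirpa and, more narrowly, Lilrb4a, where 38.9% of all genes tested had their highest knockout value in that library. For 5 members (Cd300a, Cd300e, Cd300ld, Pilra and Pirb) it was the highest of all 7 libraries, as for 23.5% of genes. On the log2 scale replicate 1 exceeded the mean of the other knockouts by 0.95 for Cd300a, 0.76 for Cd300lf, 0.72 for Cd300ld, 0.68 for Cd300e and 0.63 for Cd300lb, a difference of 1.5-fold or more that 6.4% of genes reached. It lay below them by 0.42 for Sirpa (-0.42). The median difference was 0.60 over the members and 0.00 (-0.005) over all genes tested.

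Neutrophil markers were highest in the same library although neutrophils had been depleted. All 14 neutrophil markers tested had their highest knockout value in replicate 1, and none was at 0 in any group. Their summed level was 79150 normalized counts in that library, 25940 and 26430 in the other knockouts and between 16740 and 19980 in controls. Over the groups 7 of the 14 rose, among them Hdc, the histamine-forming enzyme, with a log2 fold change of 1.20 (adjusted p = 0.00906, SE 0.23) and 0.94 without knockout replicate 1 (adjusted p = 0.013), and 0 fell with limma, edgeR or DESeq2, also at an unadjusted p under 0.05. With knockout replicate 1 left out, Cd300c2 fell by 0.81 (adjusted p = 0.00151) and Cd300lf by 0.67 (adjusted p = 0.00701). That library was the highest knockout for both genes, so leaving it out lowers their knockout means by construction. Without any other single library Cd300lf did not pass (adjusted p between 0.158 and 0.38). Without knockout replicate 1, 9 of 10 members had a negative fold change. The median over all genes was then 0.01, and 9.66% of all genes were called lower. Sirpa had a log2 fold change of -0.38 without that library. A further fit had the mean log2 level of the neutrophil markers as a covariate, which largely follows that one library. The marker sums were higher in every knockout than in every control, so this fit cannot separate group from neutrophil level. Its values, here and below, are given without a conclusion, also where a call is gained or lost. Cd300c2 was lower by 1.03 (adjusted p = 0.00431), Cd300lf by 1.00 (adjusted p = 0.00516) and Cd300a by 0.70 (adjusted p = 0.0291). Of all genes 4.24% were called lower with the covariate. In that fit Sirpa had a log2 fold change of -0.17 (adjusted p = 0.628). In these bulk samples fewer cells of a type and less RNA per cell cannot be told apart.

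**Figure D3:**
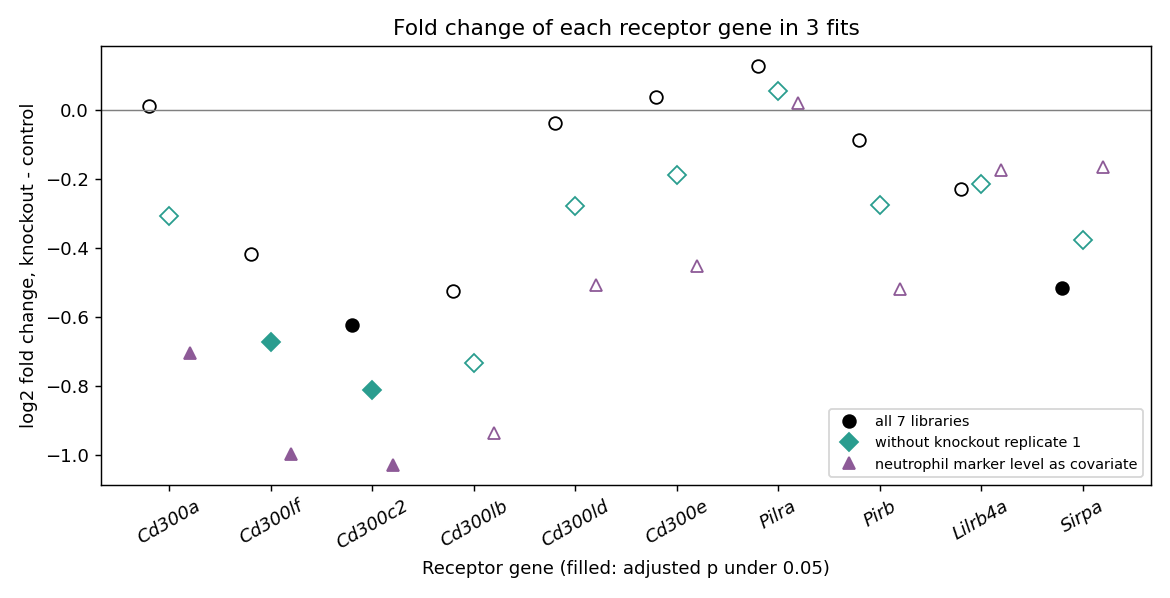
Log2 fold changes (knockout minus control) of each receptor gene from all 7 libraries (circles), without knockout replicate 1 (diamonds) and with the neutrophil marker level as a covariate (triangles), filled where the adjusted p was under 0.05. The 6 CD300 genes, Pirb and Pilra move down from the first to the third fit, Cd300a from 0.01 to -0.70 and Pilra from 0.13 to 0.02. Sirpa moves up from -0.52 to -0.17 and Lilrb4a from -0.23 to -0.17. The fit with the covariate cannot separate group from neutrophil level, because the marker sums of the groups did not overlap.

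Markers of other cells of the lavage also differed between the groups, where limma called 10.4% of all genes tested higher and 11.3% lower. Of 16 markers of monocytes and recruited macrophages 9 fell, among them Gpnmb at a log2 fold change of -1.04 (adjusted p = 0.00178), and 1, Ccr2, was higher at 0.48 (adjusted p = 0.0423). The call of Ccr2 was lost with edgeR (adjusted p = 0.0524) and without any single library other than control replicate 4 (adjusted p between 0.0581 and 0.112). The summed level of the 16 markers was between 55310 and 74070 normalized counts in controls. It was 44580, 31480 and 37210 in knockouts 1 to 3, so within the knockouts it too was highest in replicate 1. Of 14 markers of resident alveolar macrophages 0 passed with limma, edgeR or DESeq2, and at an unadjusted p under 0.05 limma had 1 higher and 0 lower. Their sums ran from 59180 to 96360 in controls and were 76250, 128400 and 81920 in knockouts 1 to 3, lowest in replicate 1. All 12 natural killer cell markers rose, Nkg7, a cytotoxic granule protein, by 1.56 (SE 0.07, adjusted p = 3.54e-05), with sums of 10040 to 16700 in controls and 49740 to 55150 in knockouts. Among 12 T cell markers Trbc1 rose and Il7r fell, and the sums ranged from 8999 to 9867 in controls and from 6994 to 10260 in knockouts. Ighm rose and Blk fell among 6 tested B and plasma cell markers, with sums from 679.5 to 917.9 in controls and from 682 to 1078 in knockouts. Blk was lost without any single library other than control replicate 3 (adjusted p between 0.0558 and 0.127), and Ighm without control replicate 2 (0.0574) or knockout replicate 2 (0.0631) and with the neutrophil covariate (log2 fold change 0.36, adjusted p = 0.341). Of 11 dendritic cell markers 3 rose, Ccl17 among them, and Wdfy4 fell, with sums from 3452 to 3855 and from 3817 to 5202. Wdfy4 was lost with library size scaling (adjusted p = 0.0817), without any single library other than knockout replicate 2 (0.0621 to 0.104) and with the covariate (log2 fold change -0.13, adjusted p = 0.52), and Ccl17 with the covariate (0.94, adjusted p = 0.176). Of 11 epithelial markers 7 rose, Sftpa1 among them, with sums from 517.7 to 727.2 and from 1020 to 1314. Kit, at 566.2 ± 81.7 (SD, n = 4) and 1243 ± 168.5 (SD, n = 3), was the single testable marker of eosinophils, basophils and mast cells, and it rose, while Epx, Mcpt8, Cpa3, Ms4a2, Fcer1a, Gata2 and Tpsb2 had no row. The part of these cells in the values of the receptor genes was not tested. The neutrophil covariate cannot show it, because it largely follows knockout replicate 1 and neutrophil marker sums were higher in every knockout than in every control.

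**Figure D4:**
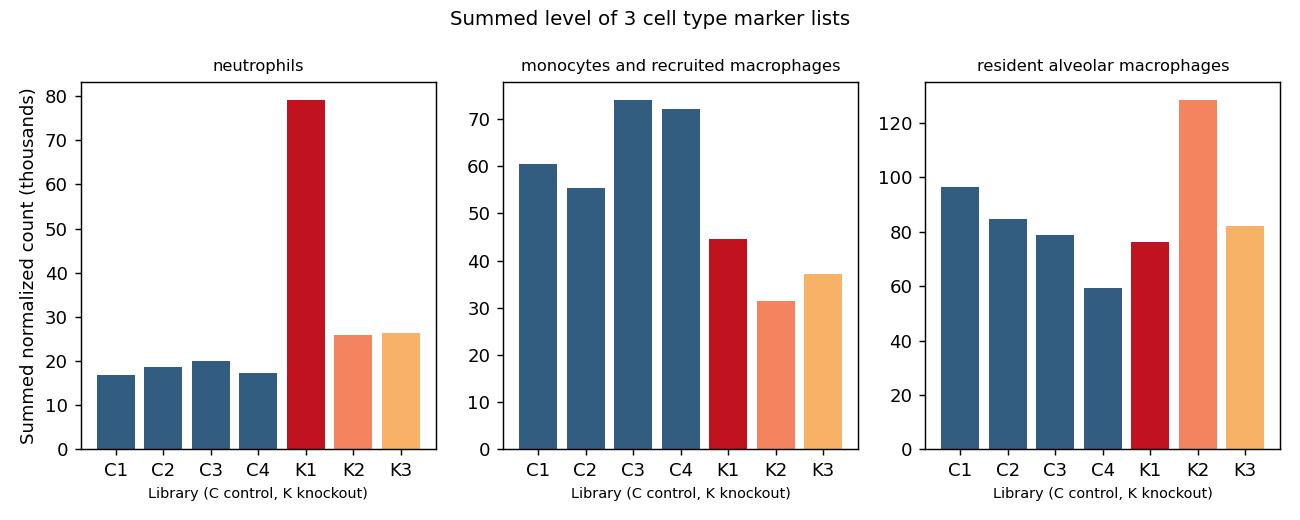
Summed normalized counts of the markers of neutrophils, of monocytes and recruited macrophages and of resident alveolar macrophages in each control (C1 to C4) and knockout (K1 to K3) library. Neutrophil markers are highest in K1, the monocyte and recruited macrophage sums of all 3 knockouts lie below those of all controls, and the resident alveolar macrophage sums of the groups overlap.

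Few partner receptors of the same families passed the test. Of 21 listed genes 11 had a row and 9 were tested, and 1 of them rose while 0 fell with limma (0 fell with edgeR and 1 with DESeq2). Over all genes tested limma called 10.4% higher and 11.3% lower, so 1 of 9 rising is close to that background. At an unadjusted p under 0.05 limma and edgeR each had 1 lower, and the median log2 fold change was 0.03. Sirpb1c, an activating relative of Sirpa, stood at 788.1 ± 76.9 (SD, n = 4) and 615.5 ± 101 (SD, n = 3) normalized counts (log2 fold change -0.36, adjusted p = 0.0579). Lilra6, an activating relative of Pirb, rose (log2 fold change 0.85 with an SE of 0.24, adjusted p = 0.036). It was at 378.8, 356.2, 359.3 and 405 normalized counts in controls and at 1115, 523.1 and 526.7 in knockouts, so all knockouts were above all controls and replicate 1 was far above the rest. Without knockout replicate 1 its log2 fold change was 0.49, and it still passed (adjusted p = 0.00723). Its call was lost without any one control (adjusted p between 0.065 and 0.0865) and with the neutrophil covariate (0.09, adjusted p = 0.724). The activating partners of Pilra, Pilrb1 and Pilrb2, had log2 fold changes of 0.25 and 0.16 and did not pass, nor did Lilr4b, the near copy of Lilrb4a, at 0.03. Cd300c and Cd300lg averaged 6.87 and 4.4 normalized counts in controls and were below the minimum for testing.

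Receptors of other ITIM-bearing or paired families went both ways, 5 rising and 3 falling of 24 tested (median log2 fold change -0.08). Of all genes tested 10.4% rose and 11.3% fell. Pecam1, an adhesion receptor with ITIMs, rose by 1.13 (SE 0.14, adjusted p = 0.00156) and Trem3, which signals through DAP12, by 1.03 (SE 0.20, adjusted p = 0.00955). Trem3 had a log2 fold change of 0.74 without knockout replicate 1 (adjusted p = 0.00425) and of 0.45 with the neutrophil covariate (adjusted p = 0.15). Trem2, a DAP12-coupled lipid receptor, fell by 1.35 (SE 0.20, adjusted p = 0.00299) and so did Fcgr2b, the inhibitory Fc gamma receptor (log2 fold change -0.55, SE 0.10, adjusted p = 0.00729). The number that rose was 2 without control replicate 2, 3 or 4, and 3 without control replicate 1 or knockout replicate 2. Without knockout replicate 1, 5 fell, where 9.66% of all genes were called lower. Shares of all genes called higher with single libraries left out are not given. For 15 of the 24 the highest knockout value was in replicate 1.

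Most genes of the signalling proteins downstream of the receptors did not pass. Of 22 adaptor, kinase and phosphatase genes 1 rose and 1 fell (median log2 fold change 0.09), beside 10.4% and 11.3% of all genes tested. Hcst, which encodes the adaptor DAP10 that natural killer cells also use, rose by 0.59 (SE 0.15, adjusted p = 0.024), and Cbl, for a ubiquitin ligase that ends tyrosine kinase signalling, fell by 0.51 (SE 0.10, adjusted p = 0.00906). Tyrobp, the gene of DAP12, had a log2 fold change of 0.21 (adjusted p = 0.28), Fcer1g, the gamma chain gene, 0.09 (adjusted p = 0.60) and Ptpn6, the gene of SHP-1, 0.09 (adjusted p = 0.58). These 3 were chosen as the receptors' direct partners after their values were seen. For 20 of the 22 genes replicate 1 was again the highest knockout. Hcst did not pass when control replicate 1, control replicate 2, control replicate 4 or knockout replicate 2 was left out, and without knockout replicate 1 it was at 0.42 (adjusted p = 0.0481). With the neutrophil covariate neither passed, Hcst at 0.22 (adjusted p = 0.436) and Cbl at -0.40 (adjusted p = 0.126). Without knockout replicate 1, 4 genes of this list fell, and without control replicate 3, 2 fell, beside 9.66% and 9.4% of all genes.

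Ligand genes of the receptors went both ways, 4 rising and 3 falling of 12 tested, with a median of -0.02. The shares over all genes tested were 10.4% and 11.3%. Sftpa1 encodes a surfactant protein that SIRP alpha can bind, and it rose from 23.0 ± 4.35 normalized counts (SD, n = 4) to 93.2 ± 8.79 (SD, n = 3), a log2 fold change of 1.99 (adjusted p = 0.000656). Itgb3, the beta 3 integrin chain bound by gp49B, rose by 0.99 (SE 0.13, adjusted p = 0.00196). Cd47, the ligand of SIRP alpha on cells, rose by 0.39 (SE 0.11, adjusted p = 0.0403), from 8451 ± 1135 normalized counts (SD, n = 4) to 11015 ± 648.1 (SD, n = 3), with every knockout above every control. Its call was lost without control replicate 1 or 4 or any single knockout (adjusted p between 0.0731 and 0.0906) and with the covariate (0.27, adjusted p = 0.358). Cd47 is named as the direct partner of Sirpa, after its value was seen. Fn1, the fibronectin gene, fell by 1.10 (SE 0.17, adjusted p = 0.00382) and so did Apoe, the gene of a lipid carrier (log2 fold change -2.65, SE 0.42, adjusted p = 0.00399). The MHC class I genes H2-K1, H2-D1 and B2m, whose products PIR-B binds, had log2 fold changes of 0.04, 0.08 and -0.07 and did not pass.

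Genes around the Cd300 cluster also went both ways. The plotted neighbourhood covers tested genes up to 500 kb on either side of the Cd300 genes. Of its 24 other genes 6 rose and 2 fell (median log2 fold change 0.21), beside 10.4% and 11.3% of all genes tested. Rab37, a small GTPase gene on the plus strand (115091431 to 115162236) that contains Cd300lf within an intron on the opposite strand and shares 0 exon bases with it, rose by 0.90 (SE 0.18, adjusted p = 0.0094). Its controls held 104.6, 138.9, 177.9 and 156.7 normalized counts and its knockouts 295.1, 270.2 and 233.1, while Cd300lf had knockouts on both sides of the control minimum. Kif19a, a kinesin gene, rose by 1.71 and Rpl38, a ribosomal protein gene, by 0.49 on one side, and Jpt1, Nup85 and Mif4gd by 0.28, 0.29 and 0.32 on the other. Tmem104 fell by 0.60 and Gm26613 fell by 1.42. Without single libraries Nup85 was lost in 6 of 7 cases (adjusted p between 0.0532 and 0.135) and Mif4gd in 5 (0.052 to 0.0928), and Jpt1 (0.0652) and Tmem104 (0.0712) were lost without knockout replicate 2. With the neutrophil covariate Tmem104 alone of the 8 passed, and Rab37 was at 0.69 (adjusted p = 0.14).

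**Figure D5:**
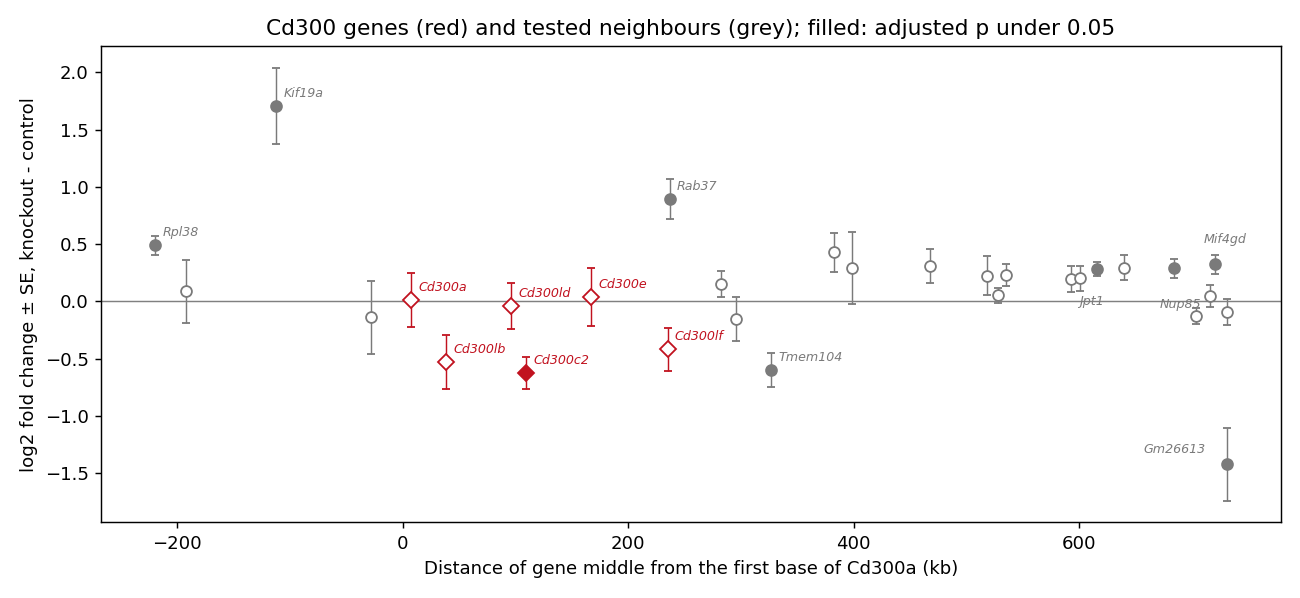
Log2 fold change ± SE against the distance of each gene's middle from the first base of Cd300a in kb, for the 6 CD300 members (diamonds) and 24 tested neighbours (circles), filled where the adjusted p was under 0.05. Among the CD300 genes Cd300c2 alone is filled at -0.62, and the filled neighbours lie on both sides of 0, from 1.71 for Kif19a to -1.42 for Gm26613.

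Likeness between genes was measured as the root mean square difference of their mean-centred log2 values over the 7 libraries, where 0 is an identical course. Among the members Cd300e and Pirb were most alike (0.16), then Cd300c2 and Cd300lf (0.19) and Cd300ld and Pilra (0.21). Outside the members, the nearest genes to Cd300c2 were Specc1 (0.07) and Tctex1d2 (0.07), and those to Cd300lf were Adssl1 (0.09) and Il6ra (0.11). Cd300a was closest to Egr3 (0.11) and Ccr1 (0.13), Cd300lb to Fgd2 (0.11) and Cmtr1 (0.13), Cd300ld to Ly6i and Zfp955b (0.12 each) and Cd300e to Cacna1a (0.10) and Zfp963 (0.13). For Pilra the nearest gene was its own family partner Pilrb2 (0.06), followed by Tax1bp3 (0.07), and reads of these related genes may be shared. Sirpa followed Cybb, the NADPH oxidase subunit gene, and C1s1 (0.05 each), Lilrb4a followed Ascc3 and Tank (0.04 each), and Pirb followed Glrx and Osgepl1 (0.08 each).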

How the data were processed

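The authors deposited 1 table of 16476 genes. Per the file headers it holds a signal column of normalized counts per library and the authors' own comparison as a log2 fold change with its error, a test statistic (a score), and the p-value before and after adjustment. The tools named, per the submitters' processing notes, are STAR 2.5.3a, cutadapt 1.15, DESeq2 and HTSeq, with the genome GRCm38 (mm10). Annotation and strand setting: not given in the sources used here. Of the deposited values, 100% were whole multiples of 1 read within 0.01, so whole reads were recovered.

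Groups came from the titles. limma 3.58.1 in R 4.3.3 (eBayes with trend) was run on log2(normalized count + 1), a scale that understates changes of low genes, for the 12963 genes with a mean of at least 10, with Benjamini-Hochberg adjustment over all of them and calls at 0.05. The pipeline was tested on simulated data. Alternatives were edgeR 4.0.16 and DESeq2 1.42.0 on the whole reads, other scalings, pseudocounts and filters, a neutrophil covariate, number blocks and left-out libraries. Chi-squares between replicates (8.63 to 35.5 per gene) showed no copies. Exon lengths and coordinates are those of GENCODE M21 (GRCm38), which held 99.81% of the identifiers, and 21 symbols that had turned into dates were restored. Protein sequences were not used here.

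The members and lists were chosen with earlier results of these data known. Named genes are the 10 members, up to 2 called genes per direction with the smallest p from each linked list and 1 from each cell type list, the 2 genes most like each member without clone names, the called neighbours, and Ntn1 and Lyz2. Members of the lists beyond these were named after their values were seen.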

Additional observations from a re-analysis of the deposited data

Results flagged for a closer look

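Of 41 control groups examined, 1 held a library far from the others, where chance gives about 1 in 20. Hdc, the gene of the histamine-forming enzyme and one of the neutrophil markers, was at 652.2 normalized counts in control replicate 3 and at 1058, 1008 and 1009 in control replicates 1, 2 and 4, a gap of 0.876 of the group's range. The knockouts, at 3050.1, 1949 and 1581, lay above all 4 controls. No receptor gene was flagged in this way, and groups of 3 libraries were not examined.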

How the results depend on the processing

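No setting called a member higher. The number of members called lower, 2 in the main analysis, was 0 to 3 with single libraries left out, 1 with library size scaling, 1 when both control replicates 2 and 3 were dropped, and 0 when both 1 and 4 were. The title numbers did not pair the libraries (correlations of deviations -0.229, -0.0253 and -0.188), nor did those of the descriptions (-0.0768, -0.285 and 0.0762), and with either replicate block 0 members were called. Directions of members that did not pass turned as follows. Cd300a was at -0.18 without both control replicates 1 and 4, -0.0733 and -0.0285 with the title and description replicate blocks and -0.70 with the neutrophil covariate. Cd300e was at -0.0511 without both control replicates 1 and 4, -0.0598 with the description block and -0.45 with the covariate, Cd300ld at 0.15 without both control replicates 1 and 4 and 0.0695 with the title block, and Pilra at -0.0501 and Pirb at 0.0591 without both control replicates 2 and 3. With single libraries left out Cd300a ran from -0.31 to 0.21, Cd300e from -0.19 to 0.37, Cd300ld from -0.28 to 0.14 and Pirb from -0.28 to 0.10. The cause was not tested.

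Over all genes 11.3% were called lower in the main fit and 6.32% to 10% with single libraries left out. The share was 4.37% and 4.8% without either pair of controls, 2.95% and 4.67% with the blocks and 4.24% with the covariate. Shares called higher in these settings are not given. Smaller list counts below are therefore not told apart from fewer calls among all genes. Family partners called higher (1) were 0 or 1 with single libraries left out and 0 without either pair of controls, with either block and with the covariate, and those called lower (0) were 0 or 1, and 1 with DESeq2 and with the covariate. Other paired receptors called higher (5) were 2 to 6, 3 and 1 when both control replicates 1 and 4, or both 2 and 3, were left out, 2 with the description block and 1 with the covariate. Those called lower (3) were 3 to 5, 1 with the description block and 5 with the covariate. Adaptors and enzymes called higher (1) were 0 or 1, and those called lower (1) were 1 to 4. Both counts were 0 without either pair of controls and with either block, and with the covariate 0 were higher. Ligands called higher (4) were 3 or 4, and 2 with the covariate. Pseudocounts, filters, TMM scaling and edgeR left all these counts within 1.5 times. Fcgr2b passed with each single library left out but not without either pair of controls or with either replicate block (adjusted p between 0.0513 and 0.0572), and Ccl17 did not pass with the title block (0.0725).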
